A study of Mus musculus with 16 samples.

Results

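Cfb encodes complement factor B, a secreted serine protease of the alternative complement pathway. In a table of 7069 m6A peaks annotated to 4943 genes, made from peritoneal macrophages (PMs), Cfb was found by its symbol. This 1 gene name carried 2 peaks, both on chromosome 17, and each peak was listed under the same 2 gene identifiers and counted once here. Cfb was chosen by its input and IP read counts in the 4 groups compared here, which were known beforehand, so its own values are given as a description, with a standard error (SE) or standard deviation (SD) and no test.

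Factor B binds to activated C3 and is then cut by factor D, which leaves the catalytic fragment Bb as the protease of the alternative pathway C3 convertase. This convertase cleaves more C3, so the alternative pathway also amplifies complement activation begun by the classical and lectin pathways. The gene lies in the class III region of the mouse major histocompatibility complex. Hepatocytes make most plasma factor B, and macrophages make it locally when they sense bacterial products or interferons.

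PMs were elicited with 3% thioglycolate, collected 3 days later from WT mice or Adap-/- mice, and cultured. Adap-/- mice lack ADAP, an immune adaptor protein encoded by Fyb1. Cells were mock-treated or stimulated with 1 µg/ml LPS for 6 h, which gave 4 groups of 2 replicates, each with an m6A immunoprecipitation (IP) library and an input library that had not been immunoprecipitated. The thioglycolate injection was common to all groups, so macrophages from mice without it were not measured. The labels do not say whether replicates came from separate mice, so the SEs and p-values cover the spread between these libraries, which may be technical. Sex and age are not given in the labels.

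The deposited counts summed to 2121313 to 4325961 reads in the 8 input libraries and to 5728590 to 19030373 in the 8 IP libraries. Fyb1 input matched the genotype labels, at 250 and 363 CPM (read counts relative to library size) on average in mock-treated and LPS-treated WT PMs and at 41.8 and 38.6 CPM in the corresponding Adap-/- groups. All CPM values were scaled by trimmed mean of M-values (TMM) and count reads on the listed peaks, so a gene without a peak has no value. Of 7 macrophage markers 6 had a peak, and none was found for Itgam. Cd68 and Lyz2 averaged 4150 and 3042 CPM in LPS-treated WT PMs, and Adgre1 7.58 CPM. Csf1r averaged 21.3 CPM there, on a peak shared with another gene. After LPS, Adap-/- minus WT was -1.28 on the log2 scale for Fcgr1 (edgeR adjusted p = 0.000204). For Mertk it was -0.32 (edgeR adjusted p = 0.0371). Adgre1, Csf1r, Cd68 and Lyz2, at 0.93, 0.13, -0.18 and -0.11, had edgeR adjusted p-values above 0.05. Without LPS, all 6 had edgeR adjusted p-values above 0.05. None of the 35 markers of neutrophils, B cells, T cells, mast cells, fibroblasts and mesothelium or hepatocytes had a peak. This does not show that those cells were absent.

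The IP libraries were less alike than the inputs, and 2 of them stood apart. Spearman's rho over all peaks was 0.982 to 0.987 between replicate inputs, 0.962 and 0.946 between IP replicates of LPS-treated WT and Adap-/- PMs, but 0.855 and 0.875 between those of mock-treated WT and Adap-/- PMs. On 302 peaks with an LPS-to-mock log2 change above 4 in the inputs of both genotypes, the summed IP level of WT mock replicate 1 was 67.2% of the mean of the LPS-treated WT IP libraries, while replicate 2 was at 4.70%. Among the mock-treated Adap-/- IP libraries, replicate 2 was at 62.7% of the LPS level and replicate 1 at 7.62%. The mock inputs were at 1.35% to 2.02% of theirs, a low level that follows from choosing the peaks by their change in these inputs. For comparisons that use mock-treated PMs, the fitted ratio changes of each Cfb peak and the main edgeR peak counts are therefore given in 2 ways. These are with and without WT mock replicate 1 and Adap-/- mock replicate 2. DESeq2 counts over all peaks for LPS are given with all libraries only. The origin of the values in these mock replicates was not tested.

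The Cfb peaks lay near the start of the gene, on the minus strand of GRCm39, within gene coordinates 35075350 to 35081494. The first, at 35080808 to 35080857, is 50 bases long, lies 638 to 687 bases from the annotated start site and was annotated to the coding sequence (CDS) of ENSMUST00000128767. The second, at 35081328 to 35081494, is 167 bases long, starts at the first base of the transcript and was annotated to its 5'UTR. The identifier ENSMUSG00000090231 is Cfb itself. The other, ENSMUSG00000092511, is described in the table as a predicted gene, runs from 35075388 to 35101018 over the same stretch and also carries the symbol Cfb. The table annotated the first peak to a CDS of this longer gene and gave no region for the second. Reads of these overlapping genes cannot be told apart, so the values below belong to the sequence under the peaks and not to 1 of the identifiers.

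Nearly all Cfb reads in the inputs came from the CDS peak. It held 259 and 178 input reads in the mock-treated WT replicates, 1010 and 1507 in mock-treated Adap-/- PMs, 2823 and 2195 in LPS-treated WT PMs and 4458 and 3675 in LPS-treated Adap-/- PMs. The 5'UTR peak held at most 6 input reads in any library. Among the 563 peaks of the same 50-base length, the Cfb CDS peak ranked 2 by input reads in both LPS-treated Adap-/- libraries and 5 in both LPS-treated WT libraries. In mock-treated Adap-/- PMs it ranked 7 and 5, against 30 and 49 in mock-treated WT PMs.

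Cfb input RNA was highest in LPS-treated Adap-/- PMs and lowest in mock-treated WT PMs. Its level was 66.3 and 48.2 CPM in mock-treated WT PMs (57.2 ± 12.7, SD, n = 2). Mock-treated Adap-/- PMs reached 266 and 367 CPM (316 ± 71.7, SD, n = 2). LPS-treated WT PMs held 878 and 794 CPM (836 ± 59.2, SD, n = 2), and LPS-treated Adap-/- PMs held 1259 and 1342 CPM (1300.4 ± 58.6, SD, n = 2). No neighbouring groups in this order overlapped. Such separation of 2 against 2 libraries was common among all genes: LPS-treated libraries lay above the mock-treated ones for 37.5% of genes and below them for 39.7% in WT PMs, and for 38.1% and 39.1% in Adap-/- PMs. Adap-/- libraries lay above WT libraries for 26.8% and below them for 29.8% after LPS, and for 29.8% and 29.9% without LPS. Bulk RNA does not separate more cells that express Cfb from more Cfb RNA per cell.

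**Figure D1:**
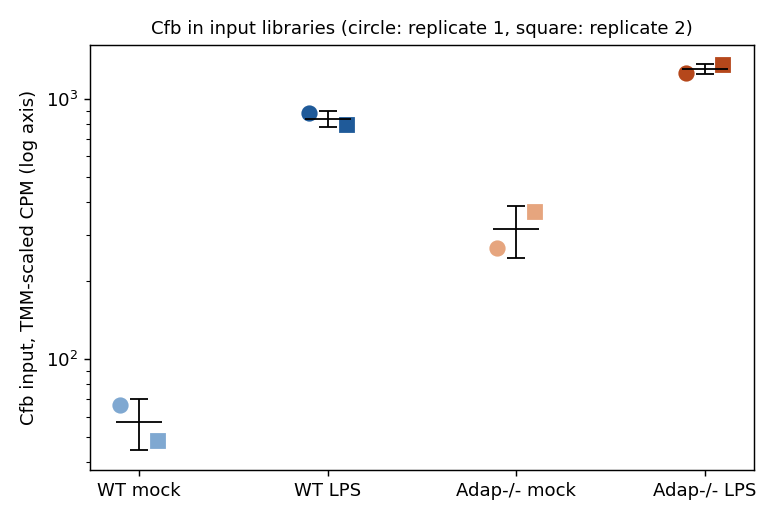
Cfb input RNA in the 4 groups, in TMM-scaled CPM on a log axis. Circles are replicate 1, squares replicate 2, and the lines give the mean and SD of 2 replicates. The groups do not overlap, and mock-treated Adap-/- PMs, with a mean of 316 CPM, lie between mock-treated WT PMs at 57.2 CPM and LPS-treated WT PMs at 836 CPM.

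Cfb was higher with LPS in both genotypes, by a larger fold in WT PMs than in Adap-/- PMs. In WT PMs the LPS mean was 14.6-fold the mock mean, and the folds from the closest to the farthest replicates were 12.0 to 18.2. In Adap-/- PMs the LPS mean was 4.11-fold the mock mean, with 3.43 to 5.05 over the replicates. The edgeR fit over all genes put the LPS change at 3.87 on the log2 scale in WT PMs (SE 0.17), 172nd from the top of 4742 genes, and at 2.04 in Adap-/- PMs (SE 0.15), which was 383rd. For scale, 30.2% of all genes were called higher with LPS in WT PMs and 28.5% in Adap-/- PMs at an adjusted p below 0.05. The Cfb contrasts belong to the values that chose the gene, so nothing is read from these shares.

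By fold, the genotypes differed far more without LPS than with it. In CPM the gap was larger after LPS, at 1300.4 against 836, than without it, at 316 against 57.2. Mock-treated Adap-/- PMs held 5.53-fold the Cfb RNA of mock-treated WT PMs, with 4.01 to 7.61 over the replicates, and the fitted log2 difference of 2.46 (SE 0.16) was 9th from the top of 4742 genes. After LPS the genotypes differed 1.56-fold, with 1.43 to 1.69 over the replicates, and the log2 difference of 0.64 (SE 0.14) was 332nd. Across all genes, 8.71% were called higher in Adap-/- PMs without LPS and 6.03% after LPS. The LPS response of Adap-/- PMs minus that of WT PMs was -1.83 on the log2 scale for Cfb (SE 0.21), the 35th largest of 4742 by size, and 1.29% of genes were called lower in that contrast. Unstimulated Adap-/- PMs thus held 37.8% of the Cfb level that WT PMs held after 6 h of LPS.

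IP and input were scaled together on the listed peaks, and the median log2 ratio over all peaks was -0.05 to 0.07. A ratio of 1 is thus about that of the median peak, and a lower one does not show a lack of enrichment. In most libraries the Cfb CDS peak had a lower IP-to-input ratio than most peaks. Its IP level, scaled over all 16 libraries, was 128 and 44.9 CPM in LPS-treated WT PMs beside inputs of 1148 and 1027 CPM. In LPS-treated Adap-/- PMs the IP level was 92.9 and 192 CPM beside inputs of 1644 and 1705 CPM. The IP-to-input ratio was therefore 0.112 and 0.0437 in LPS-treated WT PMs (0.0777 ± 0.0481, SD, n = 2) and 0.0565 and 0.112 in LPS-treated Adap-/- PMs (0.0845 ± 0.0396, SD, n = 2). The LPS-treated genotypes overlapped, and 0.836% to 1.88% of all peaks had a lower ratio in these 4 libraries. Among the 562 tested peaks of 50 bases, Cfb was the 8th to the 19th lowest there, and the median log2 ratio of these peaks was -0.12 to 0.05.

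In mock-treated PMs the CDS peak gave ratios that spread more within a group than between groups. Adap-/- mock replicate 1 held 30.4 CPM in the IP beside 392 CPM in the input, a ratio of 0.0777 that only 0.354% of peaks undercut. Adap-/- mock replicate 2 held 394 CPM in the IP beside 542 CPM in the input, a ratio of 0.727. WT mock replicate 1 was the only library with a ratio above 1, at 2.60, from 261 CPM in the IP and 100.4 CPM in the input. WT mock replicate 2 had 36.8 CPM in the IP and 74.0 CPM in the input, a ratio of 0.497. The IP replicates differed 7.10-fold in mock-treated WT PMs and 12.9-fold in mock-treated Adap-/- PMs, against 2.86-fold and 2.06-fold after LPS in WT and Adap-/- PMs.

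**Figure D2:**
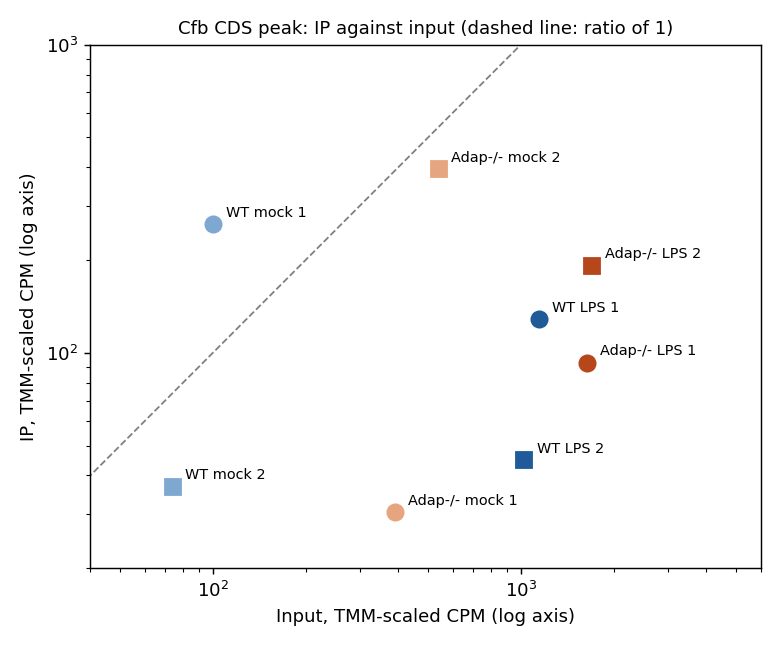
IP level against input level of the Cfb CDS peak in each of the 8 IP and input pairs, both in TMM-scaled CPM on log axes. Circles are replicate 1, squares replicate 2, and the dashed line marks a ratio of 1, about that of the median peak. All points but WT mock 1, with a ratio of 2.60, lie below the line.

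The libraries high for Cfb in mock-treated PMs were those that held LPS-raised transcripts. Relative to the LPS-treated input of the same genotype, the 302 LPS-raised peaks together were at 16.9% in the WT mock replicate 1 IP and 15.3% in the Adap-/- mock replicate 2 IP, against 1.18% and 1.86% in the other mock IP libraries and 22.9% to 26.9% in the LPS-treated IP libraries. On the same scale the Cfb CDS peak was at 24.0% and 23.5% in those libraries, and at 3.38% in WT mock replicate 2 and 1.82% in Adap-/- mock replicate 1. The LPS-treated IP libraries held Cfb at 11.8% and 4.13% in WT PMs and 5.55% and 11.5% in Adap-/- PMs. Cfb in WT mock replicate 1 and Adap-/- mock replicate 2 was thus above every LPS-treated IP library, at 301% and 277% of the mean of its genotype, whereas the LPS-raised peaks stayed below it.

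**Figure D3:**
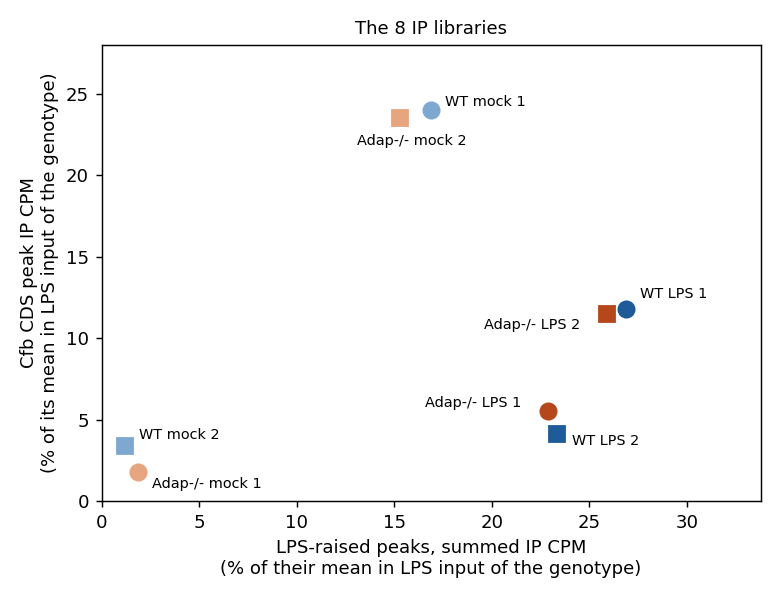
Cfb CDS peak IP level against the summed IP level of 302 LPS-raised peaks in the 8 IP libraries, each as a percentage of the mean level in the LPS-treated inputs of the same genotype. WT mock 1 and Adap-/- mock 2 lie near the LPS-treated libraries on the horizontal axis, at 16.9% and 15.3%, and above them for Cfb, at 24.0% and 23.5%.

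The fitted changes of the CDS ratio carried wide SEs. Adap-/- minus WT after LPS was 0.10 on the log2 scale (SE 1.40), a comparison that needs no mock library for its means. This SE uses the spread of all 16 libraries, and a fit of only the 8 libraries compared gave 0.11 (SE 0.63). LPS minus mock was -4.42 (SE 1.47) in WT PMs and -2.42 (SE 1.42) in Adap-/- PMs, and Adap-/- minus WT without LPS was -1.91 (SE 1.42). Without the libraries of WT mock replicate 1 and Adap-/- mock replicate 2 these became -2.71 (SE 0.83), 0.084 (SE 0.78) and -2.66 (SE 0.95), with each mock group resting on 1 replicate assumed to vary like the others. The Adap-/- LPS change therefore kept neither its direction nor its size, whereas the WT LPS change and the genotype difference without LPS stayed negative. Over all 7058 peaks tested, edgeR called none for an LPS change of the ratio in either genotype, a share of 0%, while 763 and 812 had an unadjusted p below 0.05 and DESeq2 called 202 and 117 in WT and Adap-/- PMs. Between genotypes 0.0142% were called after LPS, which is 1 peak, and 0% without LPS. Per the protocol, IP and input were split from the same RNA, but the replicate differences of same-numbered libraries correlated only at -0.10 to 0.10. With the replicate number as a block, edgeR called 7 and 6 peaks for LPS in WT and Adap-/- PMs. Between genotypes the block gave 0 after and without LPS. Without WT mock replicate 1 and Adap-/- mock replicate 2, edgeR called 66 and 101 of 7060 peaks for LPS in WT and Adap-/- PMs, with 622 and 903 at an unadjusted p below 0.05, and 84 and 115 with the block. It called 0 between genotypes after and without LPS, with 822 and 206 at an unadjusted p below 0.05 and 37 and 12 by DESeq2.

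The 5'UTR peak behaved in the other way: few input reads, and more in the IP. Its IP libraries held 58 and 125 reads in LPS-treated WT PMs, 156 and 71 in LPS-treated Adap-/- PMs, 114 and 15 in mock-treated Adap-/- PMs and 3 and 10 in mock-treated WT PMs. As scaled levels these were 8.74 and 8.68 CPM in LPS-treated WT PMs and 7.87 and 6.27 CPM in LPS-treated Adap-/- PMs. Mock-treated Adap-/- PMs held 5.70 and 2.02 CPM, and mock-treated WT PMs 0.386 and 0.699 CPM. These mock IP libraries include WT mock replicate 1 and Adap-/- mock replicate 2, which stood apart. The input level of this peak cannot be measured well.

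The IP-to-input ratio of the 5'UTR peak was above 1, about that of the median peak, in each of the 7 pairs with an input read. It was 10.8 and 9.27 in LPS-treated WT PMs, 4.27 and 2.25 in LPS-treated Adap-/- PMs, 7.35 and 1.12 in mock-treated Adap-/- PMs and 1.68 in WT mock replicate 2. WT mock replicate 1 had no input read there, so it has no ratio. Adap-/- minus WT after LPS was -1.68 on the log2 scale (SE 1.09), or -1.67 (SE 0.82) with only the 8 libraries compared. The other contrasts were 1.89 (SE 1.82) for LPS in WT PMs, 0.032 (SE 1.24) for LPS in Adap-/- PMs and 0.18 (SE 2.44) between genotypes without LPS. Without WT mock replicate 1 and Adap-/- mock replicate 2 the latter became 2.52 (SE 1.69), -1.28 (SE 1.18) and 2.14 (SE 1.79). With at most 6 reads in any input, these ratios were not resolved at this depth. Summing both peaks gave values close to those of the CDS peak, 0.026 (SE 1.34) for Adap-/- minus WT after LPS, since it holds most reads.

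The split of Cfb reads between its peaks could be measured within each IP library, where it does not depend on the depth of the input. The 5'UTR peak took 6.38% (95% exact Clopper-Pearson interval 4.88 to 8.17) and 16.2% (13.7 to 19.0) of the Cfb IP reads in LPS-treated WT PMs. In LPS-treated Adap-/- PMs it took 7.82% (6.68 to 9.08) and 3.16% (2.48 to 3.97). In mock-treated Adap-/- PMs it took 15.8% (13.2 to 18.6) in replicate 1 and 0.509% (0.285 to 0.838) in replicate 2. In mock-treated WT PMs it took 0.148% (0.0304 to 0.431) in replicate 1 and 1.87% (0.898 to 3.40) in replicate 2. The replicate intervals did not overlap in any group, so the shares varied more between libraries than counting alone allows, and the lowest shares were those of WT mock replicate 1 and Adap-/- mock replicate 2.

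The inputs gave the background for these shares. Between 0.0708% and 0.559% of the Cfb input reads fell on the 5'UTR peak in the 7 inputs that had any, and WT mock replicate 1 had 0 of 259, which allows a share of up to 1.16% when set at 3 counts (1.41% by the upper Clopper-Pearson bound). Among the LPS-treated libraries every IP share was above every input share, whereas WT mock replicate 1 and Adap-/- mock replicate 2 in the IP, at 0.148% and 0.509%, lay within the input range. These intervals cover counting error only, because PCR copies of 1 molecule were not told apart.

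**Figure D4:**
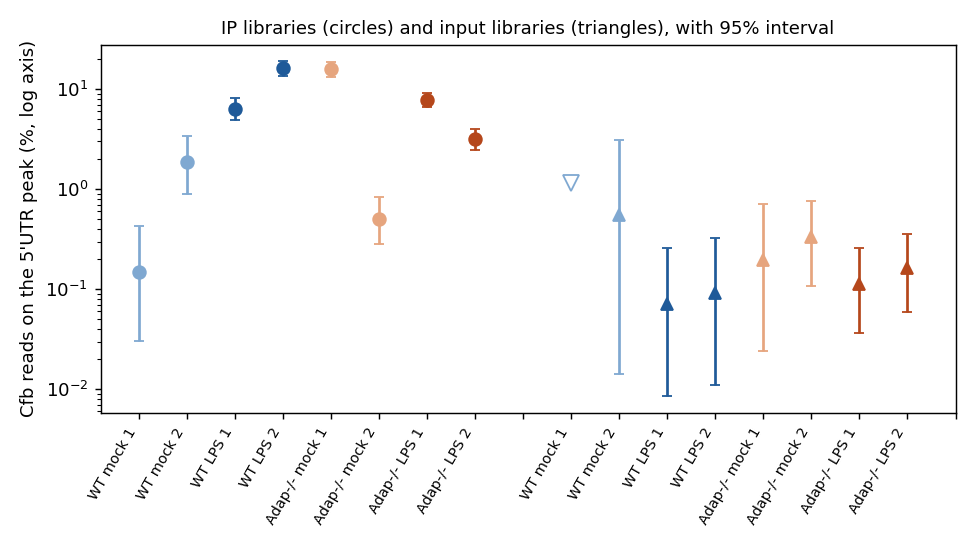
Percentage of Cfb reads on the 5'UTR peak in the IP libraries (circles) and input libraries (triangles), on a log axis, with 95% Clopper-Pearson intervals; the open triangle is the limit for the input with 0 reads. In LPS-treated PMs the IP shares of 3.16% to 16.2% lie above all inputs, and WT mock 1 and Adap-/- mock 2 have the lowest IP shares.

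Most other complement genes had no peak in the table. Of 51 further members of the system 12 were measured: 6 of 18 of the classical and lectin pathways, 1 of 15 regulators and 5 of 8 receptors. The other components of the alternative pathway, C3, factor D (Cfd) and properdin (Cfp), had no peak, nor had any of 7 terminal components. C2, the classical pathway counterpart of factor B encoded next to it, had none either. Cfb was thus the only alternative pathway component that could be followed here.

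With LPS, 1 of the 12 measured complement genes was called higher and 5 lower in WT PMs, against 30.2% of all genes higher and 28.9% lower. In Adap-/- PMs 2 were higher and 6 lower, against 28.5% and 26% of all genes. The median log2 change of the 12 was -0.29 in WT and -0.42 in Adap-/- PMs, beside -0.032 and -0.033 over all genes. Cfb, at 3.87 and 2.04, lay above each of the 12, but it was chosen with these values known, so nothing is read from this rank.

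C1ra, which encodes the C1r protease of the C1 complex, was the gene called higher in both genotypes. It went from 11.3 and 19.7 CPM to 37.6 and 63.6 CPM in WT PMs and from 22.0 and 21.4 CPM to 57.3 and 50.3 CPM in Adap-/- PMs. Its log2 change was 1.70 in WT PMs (SE 0.26, edgeR adjusted p = 3e-05) and 1.31 in Adap-/- PMs (SE 0.24, edgeR adjusted p = 0.000214). The LPS-treated libraries were above the mock-treated ones in each genotype. C1sa, the older symbol of C1s1 for the C1s protease, shares its peak with another gene and was not called, at 0.51 in WT PMs and 0.19 in Adap-/- PMs.

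Of the 3 chains of C1q, the recognition molecule of the classical pathway, 2 were called lower with LPS. C1qa fell by 0.43 on the log2 scale in WT PMs (SE 0.12, edgeR adjusted p = 0.00644) and by 0.55 in Adap-/- PMs (SE 0.12, edgeR adjusted p = 0.00118). C1qc fell by 0.50 (edgeR adjusted p = 0.00501) and 0.55 (edgeR adjusted p = 0.00325), and C1qb, at -0.35 and -0.41, was not called. Cd93, a surface glycoprotein once described as a C1q receptor, fell the most, from 980 and 946 CPM to 91.0 and 116 CPM in WT PMs and from 1070 and 1041 CPM to 134 and 144 CPM in Adap-/- PMs. Its log2 change was -3.22 in WT PMs (SE 0.12, edgeR adjusted p = 9.66e-13) and -2.93 in Adap-/- PMs (SE 0.12, edgeR adjusted p = 2.65e-12).

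Receptors for complement fragments split between the genotypes. C5ar1, the receptor of the anaphylatoxin C5a, held 205 and 230.2 CPM in LPS-treated WT PMs and 354 and 469 CPM in LPS-treated Adap-/- PMs, a log2 difference of 0.92 (SE 0.13, edgeR adjusted p = 0.000241). C3ar1, the receptor of C3a, held 1264 and 1385 CPM in LPS-treated WT PMs and 723 and 649 CPM in LPS-treated Adap-/- PMs, a log2 difference of -0.95 (SE 0.11, edgeR adjusted p = 4.55e-05). The genotypes did not overlap for either gene. With LPS, C5ar1 rose in Adap-/- PMs by 0.91 (SE 0.13, edgeR adjusted p = 1.33e-05) and C3ar1 fell by 0.43 (SE 0.11, edgeR adjusted p = 0.00312), while neither was called in WT PMs, at 0.30 and -0.10. The difference of the LPS responses was not called for C5ar1 (0.61, edgeR adjusted p = 0.121) or for C3ar1 (-0.32, edgeR adjusted p = 0.393).

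After LPS, 3 of the 12 complement genes were higher in Adap-/- PMs and 2 lower, against 6.03% and 9.78% of all genes, and the median of the 12 was -0.10 beside -0.011. Besides C5ar1, those higher were Cd93 at 0.43 (edgeR adjusted p = 0.0245) and C1rl, a C1r-like protease, at 1.39 (SE 0.44, edgeR adjusted p = 0.0418). Besides C3ar1, C1qb was lower at -0.60 (edgeR adjusted p = 0.0258). Without LPS, C1rl was higher at 1.74 (edgeR adjusted p = 0.0136), and C3ar1 at -0.63 (edgeR adjusted p = 0.000991) and C1qb at -0.54 (edgeR adjusted p = 0.0386) were lower, which is 1 higher and 2 lower against 8.71% and 8.65% of all genes. C1rl was low throughout, at 1.62 to 3.84 CPM in mock-treated WT PMs and 7.09 to 11.4 CPM in mock-treated Adap-/- PMs. None of the 12 was called for a difference between the LPS responses by edgeR or DESeq2, and 2 had an unadjusted p below 0.05 by edgeR. The 5 calls after LPS became 2 without either LPS-treated Adap-/- library and 3 without either LPS-treated WT library. The 3 calls without LPS became 1 without Adap-/- mock replicate 2 or WT mock replicate 2, and 2 without Adap-/- mock replicate 1.

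Of the remaining genes, Itgax and Itgb2, whose products form complement receptor 4, fell with LPS in WT PMs by 0.35 (edgeR adjusted p = 0.0222) and 0.61 (edgeR adjusted p = 0.00624). In Adap-/- PMs Itgax fell by 0.48 (edgeR adjusted p = 0.00346) and Itgb2, at -0.16, was not called. Cr1l, a regulator of C3 convertases, fell in Adap-/- PMs by 1.24 (edgeR adjusted p = 0.0381) from 7.61 and 3.88 CPM to 1.98 and 2.92 CPM, a level of few reads.

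**Figure D5:**
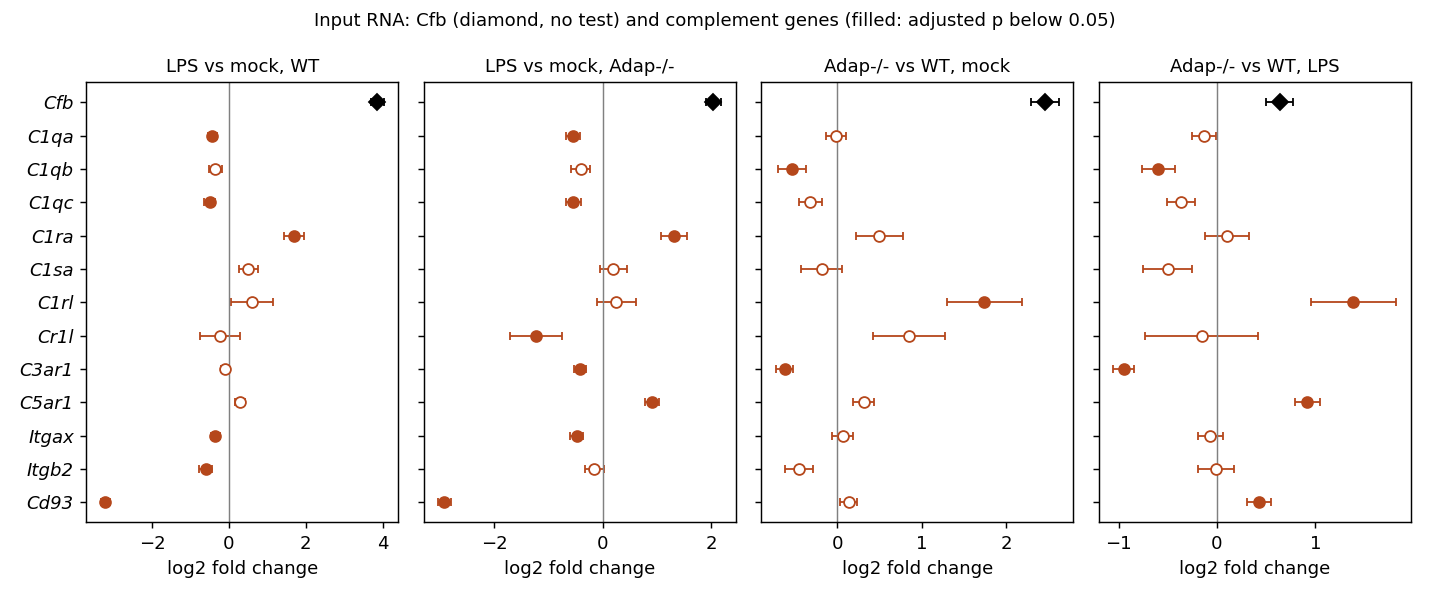
Log2 fold change in input RNA, with SE, of Cfb (diamond, no test) and the 12 measured complement genes in the LPS contrasts and genotype contrasts; each panel has its own horizontal scale. Filled circles have an edgeR adjusted p below 0.05 over all genes. Cfb was chosen with its values known, unlike the complement list as a whole, so its place is a description. Cfb lies to the right of all complement genes with LPS in both genotypes and in mock-treated Adap-/- against WT PMs, where it is at 2.46, and below C5ar1 and C1rl after LPS, where it is at 0.64.

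No m6A peak of a complement gene was called for its IP-to-input ratio by edgeR. The 12 genes held 22 peaks, and 0 were called in each of the contrasts, with 6 and 0 at an unadjusted p below 0.05 for LPS in WT and Adap-/- PMs and 5 and 0 between genotypes with and without LPS. Over all 7058 peaks those unadjusted counts were 763 and 812 for LPS and 503 and 148 between genotypes. DESeq2 called 2 complement peaks for LPS in WT PMs, of 202 over all peaks, and 1 between genotypes after LPS, of 29 over all peaks, all of Cd93. These were 1.91 (DESeq2 adjusted p = 0.0330) and 2.52 (DESeq2 adjusted p = 0.00116) for LPS in WT PMs and -2.84 (DESeq2 adjusted p = 0.00237) for Adap-/- minus WT. Without WT mock replicate 1 and Adap-/- mock replicate 2 the LPS changes of these Cd93 peaks were 1.89 (DESeq2 adjusted p = 0.218) and 2.90 (DESeq2 adjusted p = 0.00546), and edgeR again called none of the 22, with 2 and 1 at an unadjusted p below 0.05 for LPS in WT and Adap-/- PMs. Cd93 is a transcript that LPS lowered, and on the 22 peaks most lowered by LPS the LPS-treated WT IP libraries were at 16.3% and 8.75% of the mock IP level against 4.02% and 4.14% in Adap-/- PMs. The part of these libraries in the Cd93 values was not tested.

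The signalling that reaches the Cfb gene in macrophages runs from the LPS receptor through NF-κB and interferon pathways. Of 35 listed factors 24 had a peak. With LPS, 16 were called higher and 3 lower in WT PMs and 17 higher and 2 lower in Adap-/- PMs, against 30.2% and 28.9% of all genes in WT PMs and 28.5% and 26% in Adap-/- PMs, with medians of 1.69 and 1.45 beside -0.032 and -0.033 over all genes. All 5 measured NF-κB genes rose in both genotypes, among them Nfkb1 by 2.15 in WT and 2.12 in Adap-/- PMs. Of 11 interferon pathway genes 9 rose in WT PMs and 8 in Adap-/- PMs, among them Jak2 by 3.62 and 2.94. Ifngr1 was lower in both, at -1.59 and -1.48. The LPS sensing group was mixed. Of its 8 measured genes 2 were called higher and 2 lower in WT PMs, and 4 higher and 1 lower in Adap-/- PMs. Irak1 was lower in both, at -0.96 and -0.81, and Tlr4 in WT PMs only, at -0.36.

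Between genotypes after LPS, 3 of the 24 were higher in Adap-/- PMs, all of the LPS sensing group, and 1 was lower, against 6.03% and 9.78% of all genes. Tlr4, the LPS receptor, held 41.3 and 40.5 CPM in LPS-treated WT PMs and 60.4 and 62.7 CPM in LPS-treated Adap-/- PMs, a log2 difference of 0.59 (SE 0.13, edgeR adjusted p = 0.00636). Its co-receptor Cd14 was higher by 0.49 (edgeR adjusted p = 0.0193) and the adaptor Ticam2 by 0.36 (edgeR adjusted p = 0.0169). Of the 3 Ticam2 peaks 1 is shared with another gene. The interferon factor Irf7 was lower, at -0.36 (edgeR adjusted p = 0.0449). Without LPS, 5 were higher in Adap-/- PMs and 3 lower, against 8.71% and 8.65% of all genes. Irf7 was the farthest apart, at 415 and 392 CPM in mock-treated WT PMs and 888 and 887 CPM in mock-treated Adap-/- PMs, a log2 difference of 1.14 (SE 0.12, edgeR adjusted p = 2.51e-05). Nfkbiz, an NF-κB cofactor, was higher by 1.04 (edgeR adjusted p = 0.000137) and the kinase Jak2 by 0.71 (edgeR adjusted p = 0.000424). Irf1, an activator of interferon-responsive genes, was lower there at -0.69 (edgeR adjusted p = 0.0138). The 4 calls after LPS became 2 without Adap-/- LPS replicate 2 or WT LPS replicate 1, and leaving out replicate 2 of LPS-treated WT PMs gave 1. The 8 calls without LPS became 3 without Adap-/- mock replicate 2 or WT mock replicate 2.

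The neighbours of Cfb on chromosome 17 were given as context. Within 100 kb of the Cfb peaks, Dxo, Neu1 and Hspa1b had peaks. Dxo, an RNA decapping enzyme gene 24157 bases away, was called in none of the contrasts, at 0.26 and 0.31 for LPS in WT and Adap-/- PMs and 0.15 between genotypes without LPS. Neu1, a lysosomal sialidase gene 72379 bases away, fell with LPS in WT PMs by 0.32 (edgeR adjusted p = 0.0064) and was called in no other contrast, at 0.040 between genotypes without LPS. Hspa1b had 1 to 8 input reads and was left out of the test.

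The genes most like Cfb over the 8 inputs were found by Pearson's r of log2(CPM + 0.5), as a description with no p. Slc25a37, a mitochondrial iron importer gene, came first at 0.996, followed by Fzr1 at 0.995, the Notch ligand gene Jag1 at 0.993, PPP4R3A at 0.991, Marchf1 and Lgals3bp at 0.988, Cmss1 and Filip1l, which share their peak, the formyl peptide receptor gene Fpr1 at 0.986 and Btbd7. Of 4374 genes compared, 317 had an r above 0.9. The points share only 4 groups, so a high r rests mainly on differences between groups and does not require the same group order. Slc25a37 averaged 178, 439.8, 788 and 1145 CPM in the order mock-treated WT, mock-treated Adap-/-, LPS-treated WT and LPS-treated Adap-/- PMs. Fpr1 had 119, 562, 995 and 2442 CPM in that order.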

How the data were processed

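MeRIP-seq libraries from 4 groups of PMs were compared. The authors deposited 1 table of read counts per merged peak, not normalised, with peaks called over the libraries and annotated to genes. Per the labels, the submitters' processing notes name GRCm39, Bowtie2 2.2.8, MACS2 2.1.2 and DiffBind 2.8, with no role or order. The counting rule and its use of strand are not given in the sources used here, and start coordinates were shifted from 0-based to 1-based.

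Input counts of all peaks annotated to a gene identifier were summed per gene and fitted with edgeR 4.0.16 (R 4.3.3), with TMM scaling, filterByExpr at a minimum count of 10, 1 mean per group and the quasi-likelihood test with Benjamini-Hochberg adjustment over 4742 genes. This left 201 genes out. IP-to-input ratios were fitted per peak in all 16 libraries, over 7058 peaks with 11 left out. The biological coefficient of variation was 8.82% for input genes and 30.6% for peaks, so ratios were the less precise measure. The threshold was an adjusted p below 0.05. The fits of input genes and of ratios were tested on simulated data, for the ratios with less spread than in these libraries.

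Alternatives were another tool (DESeq2 1.42.0), scaling by RLE or by upper quartile, a fit with every gene kept and peaks of 1 gene symbol only. Others were TMM within IP and within input libraries, only the libraries compared, the replicate number as a block and each replicate left out. Cfb, the gene lists and the named genes (Cfb, complement genes with a peak, neighbours within 100 kb, upstream factors called between genotypes or needed to describe their list, and the 10 genes most like Cfb) were chosen with earlier results of these data known. Libraries of the same number came from the same RNA in the IP and input, per the protocol, and their replicate differences correlated at -0.10 to 0.10. Peak p-values, genome sequence and protein sequence were not used here, and no promoter entry for Cfb was found.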

Additional observations from a re-analysis of the deposited data

Results flagged for a closer look

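Of the 24 measured factors upstream of Cfb, 3 had lower LPS responses in Adap-/- PMs by the edgeR test of the difference itself, against 1.29% of all genes lower and 0.358% higher. For Irf7 the response of Adap-/- PMs minus that of WT PMs was -1.50 on the log2 scale (SE 0.17, edgeR adjusted p = 0.000261), from 404 to 12491 CPM on average in WT PMs and from 887 to 9699 CPM in Adap-/- PMs. For Nfkbiz it was -0.76 (SE 0.17, edgeR adjusted p = 0.0300), from 36.8 to 760.3 CPM in WT PMs and from 75.5 to 925 CPM in Adap-/- PMs. For Jak2 it was -0.68 (SE 0.14, edgeR adjusted p = 0.0182), from 53.6 to 659 CPM in WT PMs and from 87.4 to 672 CPM in Adap-/- PMs. The call for Irf7 held with each library left out. That for Jak2 was lost without any of the LPS-treated or mock-treated Adap-/- libraries or the LPS-treated WT libraries, at edgeR adjusted p = 0.0507 to 0.119. That for Nfkbiz held when Adap-/- LPS replicate 2 or WT mock replicate 2 was left out, and with the other libraries left out the edgeR adjusted p-values were 0.0508 to 0.234.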

How the results depend on the processing

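Of 178 values recomputed under alternatives other than leaving out 1 library, 174 moved by less than the spread between replicates or stayed within 1.5 times the count. Of these, 3 changed sign, all for the 5'UTR ratio change with LPS in Adap-/- PMs, which went from 0.032 to -0.12 by DESeq2, -0.11 with TMM within IP and within input libraries and -1.28 without WT mock replicate 1 and Adap-/- mock replicate 2. For ratio contrasts with mock groups, the spread between replicates includes the mock IP libraries that stood apart. A ratio change that moved by less than it is therefore not shown to be stable. For Cfb input these alternatives gave log2 changes of 3.58 to 3.89 and 1.76 to 2.05 for LPS in WT and Adap-/- PMs, 0.63 to 0.66 and 2.45 to 2.47 between genotypes after and without LPS, and -1.84 to -1.80 for the difference of the responses. The Cfb CDS ratio change with LPS in Adap-/- PMs went from -2.42 to 0.084 (SE 0.78) without the libraries of WT mock replicate 1 and Adap-/- mock replicate 2, a choice made after seeing the data. DESeq2 called 2 complement peaks for LPS in WT PMs and 1 between genotypes after LPS, where edgeR called 0. Over all peaks, edgeR called 0, 0, 1 and 0 for LPS in WT and Adap-/- PMs and between genotypes after and without LPS, DESeq2 called 202, 117, 29 and 0, and edgeR without those 2 mock replicates called 66, 101, 0 and 0. With peaks of 1 gene symbol only, 2 upstream factors were called between genotypes after LPS in place of 4. The causes were not tested.

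Leaving out each library in turn gave Cfb input changes of 3.63 to 4.09 and 1.82 to 2.28 for LPS, 0.57 to 0.71 and 2.21 to 2.72 between genotypes, and -2.06 to -1.56 for the difference. The CDS ratio ran from -5.28 to -2.63 and -3.15 to 0.087 for LPS, where the positive value was without Adap-/- mock replicate 2, from -0.49 to 0.96 between genotypes after LPS and from -4.42 to -0.13 without LPS. The 5'UTR ratio ran from -1.29 to 2.59 and -1.28 to 1.40 for LPS, -2.13 to -1.21 and -2.95 to 1.46 between genotypes. Complement genes called were 5 to 7 and 6 to 9 for LPS, 2 (without either LPS-treated Adap-/- library) to 6 and 1 (without replicate 2 of either mock group) to 4 between genotypes after and without LPS, and 0 to 1 for the difference. Upstream factors called were 17 to 19 for LPS in each genotype, 1 (without WT LPS replicate 2) to 5 and 3 (without replicate 2 of either mock group) to 8 between genotypes, and 1 (without Adap-/- LPS replicate 1, either mock-treated Adap-/- or either LPS-treated WT library) to 3 for the difference. Complement peaks called were 0 throughout, save 1 between genotypes after LPS without Adap-/- LPS replicate 2.

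Same-numbered inputs of different groups did not deviate together, with correlations from -0.07 to 0.16. With the replicate number as a block, Cfb input changes were 3.86, 2.04, 0.64, 2.46 and -1.82, and 2792, 2593, 703, 784 and 79 genes were called in place of 2806, 2585, 750, 823 and 78. With the block the fits called 7, 6, 0 and 0 peaks for the IP-to-input ratio in place of 0, 0, 1 and 0, and crossing the WT mock numbers, chosen after seeing the data, gave 28, 31, 1 and 0. Depth limits the 5'UTR ratio, with at most 6 reads in any input.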
